A study of Mus musculus with 12 samples.

Results

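The transcripts of 9 genes that bind, take up, store or export metals were followed in the cerebellar cortex of mice on 3 diets. The genes are the metallothioneins Mt1, Mt2 and Mt3, the ferritin subunits Fth1 and Ftl1, transferrin (Trf), the transferrin receptor (Tfrc), the iron exporter ferroportin (Slc40a1) and ceruloplasmin (Cp). They were chosen by name, with earlier results of these data known, and all 9 were found among the 54752 genes of the count table. Poly(A) RNA was sequenced from 12 wild-type (WT) male F1 hybrid C57BL6J/FVB mice aged 12 weeks, 4 fed ad libitum (AL), 4 under dietary restriction (DR) and 4 on a ketogenic diet (KD). DR mice received a reduced daily ration of the same pellets, built up stepwise from the young adult stage, and were killed at the start of the dark period without their last meal. AL and DR mice were killed in the same interval of the day. For KD mice, the composition and iron content of the food, the length of the diet and the hour of death are not given in the sources used here. The dissected piece held folia of the hemisphere, paravermis and vermis and no cerebellar nuclei, so each library mixes neurons, glia and vessels, and fewer cells of a type cannot be told apart from less RNA per cell.

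Metallothioneins are small cysteine-rich proteins that bind zinc and copper. Mt1 and Mt2 are made mainly by astrocytes in the brain and are induced by metals, through the zinc sensor MTF1, and by glucocorticoids, whereas Mt3 is the form enriched in the brain and responds little to either. Iron circulates on transferrin and enters cells through the transferrin receptor. It is stored in a shell built of ferritin heavy and light chains, and leaves cells through ferroportin, helped by the ferroxidases ceruloplasmin and hephaestin. Iron regulatory proteins tune several of these transcripts by binding a hairpin, the iron responsive element. Binding in a 5′ UTR blocks translation, as in both ferritins and ferroportin, and binding in the 3′ UTR of Tfrc protects its transcript from decay.

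These hairpins are shown because they set apart the members that iron can tune after transcription. A search of GENCODE transcripts (vM21, build GRCm38) for a bulged C, 5 paired bases (G-U pairs allowed) and the loop CAGTGN found them in 4 of the 9 genes. Each line gives 29 bases, 5′ to 3′ on the strand of the gene, with the loop of 6 bases in capitals. Positions are those of the 17 bases from the bulged C to the end of the downstream paired arm.
Fth1, 5′ UTR, chr19:9982738-9982754, plus strand: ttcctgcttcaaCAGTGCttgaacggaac
Ftl1, 5′ UTR, chr7:45459785-45459801, minus strand: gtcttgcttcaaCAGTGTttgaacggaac
Slc40a1, 5′ UTR, chr1:45925471-45925487, minus strand: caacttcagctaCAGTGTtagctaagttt
Tfrc, 3′ UTR, chr16:32631225-32631241, plus strand: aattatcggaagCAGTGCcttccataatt
Tfrc, 3′ UTR, chr16:32631604-32631620, plus strand: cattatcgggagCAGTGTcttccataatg
Tfrc, 3′ UTR, chr16:32631669-32631685, plus strand: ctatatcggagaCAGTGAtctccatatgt
Tfrc, 3′ UTR, chr16:32631716-32631732, plus strand: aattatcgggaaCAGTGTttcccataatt
Among 21901 protein-coding genes, the same letters and pairing occurred in a 5′ UTR in 0.142% and in a 3′ UTR in 0.589%. Tfrc held 4 matches. The metallothioneins, Trf and Cp held none, which says only that this pattern is not in their annotated UTRs. In the count table (GRCm38.p6) Fth1 spans chr19:9982703-9985092, Ftl1 chr7:45457944-45459884, Tfrc chr16:32608920-32632794 and Slc40a1 (ENSMUSG00000025993.10) chr1:45908068-45926523. Trf spans chr9:103204001-103230444 on the minus strand and Cp chr3:19957054-20009145 on the plus strand.

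The metallothionein genes lie side by side on chromosome 8, all on the plus strand: Mt3 at chr8:94152607-94154146, Mt2 (ENSMUSG00000031762.7) at chr8:94172664-94173568 and Mt1 (ENSMUSG00000031765.8) at chr8:94179082-94180327. Gaps of 18517 bases between Mt3 and Mt2 and of 5513 bases between Mt2 and Mt1 separate them. The 250 bases before the RefSeq starts of Mt1 and Mt2 (build GRCm38.p6) are shown because both genes were lower on KD than on DR. Capitals mark the metal response element, the letters that MTF1 binds, searched as TGCACNC or TGCGCNC on both strands.
Mt1, chr8:94178839-94179088, plus strand: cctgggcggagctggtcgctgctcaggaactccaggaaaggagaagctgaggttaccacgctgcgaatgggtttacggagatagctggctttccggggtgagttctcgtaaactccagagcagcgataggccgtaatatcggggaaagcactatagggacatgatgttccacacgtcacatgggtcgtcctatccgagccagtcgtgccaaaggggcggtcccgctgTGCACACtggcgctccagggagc
Mt2, chr8:94172368-94172617, plus strand: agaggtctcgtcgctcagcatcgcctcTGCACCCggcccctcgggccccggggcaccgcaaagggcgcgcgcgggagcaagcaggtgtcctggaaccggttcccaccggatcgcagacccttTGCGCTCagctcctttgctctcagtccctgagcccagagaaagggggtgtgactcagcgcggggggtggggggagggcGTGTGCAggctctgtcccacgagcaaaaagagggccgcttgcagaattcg
With the 50 bases after the start included, Mt1 held 3 elements, Mt2 held 4 and Mt3 held 1. At least 1 element was found in 25.7% of 32851 RefSeq promoters of that length, and at least 3 in 1.97%. The Mt1 count depends on the start used. GENCODE also lists Mt1 transcripts that start at positions 94179211 and 94179241, and the 250 bases before either start held 5 elements. The glucocorticoid receptor half-site TGTTCT was in neither the Mt1 nor the Mt2 window and was found in 19% of promoters. This says only that the letters are absent from these short windows, since bases further upstream were not searched. The windows before the later Mt1 starts were searched for the metal response element alone. The antioxidant response element TGACNNNGC occurred in the Mt2 window, as in 12.4% of promoters. Promoters were on hand for 7 of the 9 genes.

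Levels per transcript length separated most of the members. In TPM (counts per exon length, scaled to a total of 1000000 in each library), Fth1 was highest, with a median of 785 over the 12 libraries, and Mt1 followed at 753.9. These neighbours overlapped in AL mice. Mt3 (514.5 TPM), Ftl1 (182 TPM), Tfrc (53.3 TPM) and Mt2 (23.3 TPM) came next, then Cp (5.45 TPM), Trf (3.30 TPM) and Slc40a1 (1.82 TPM). Below Mt1, no neighbours in that order overlapped in AL mice on full exon lengths. Mt4, the metallothionein of squamous epithelia, had 0 counts in all 12 libraries, which allows up to 0.0946 CPM (counts per 1000000) in the shallowest library (3 counts, counting error only).

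Exons shared with other genes limit the values of 3 members. Exons of Gm45774 on the opposite strand cover 73.5% of the exon bases of Mt2, and the library kit does not keep strand. Exons of Gm20425 on the same strand cover 63.5% of those of Trf. Gm20425 averaged 0.00217 CPM, so almost no reads on the shared bases were counted for it. The Trf level here therefore rests on the 1212 bases outside that overlap, unless shared reads went to Trf alone. For Ftl1, 78.6% of the 100-base stretches of its transcript recur in other annotated genes, 59.3% in Ftl1-ps1 alone. Mt1, Mt3, Tfrc and Slc40a1 shared no stretch, and Fth1 and Cp shared under 1% (0.964% and 0.25%). Per exon base outside the overlaps, the medians would be 87.7 TPM for Mt2, above Tfrc, and 9.05 TPM for Trf, above Cp, so their places in the order depend on the length used. Mt2, Trf and Ftl1 are therefore reported as uncertain.

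**Figure D1:**
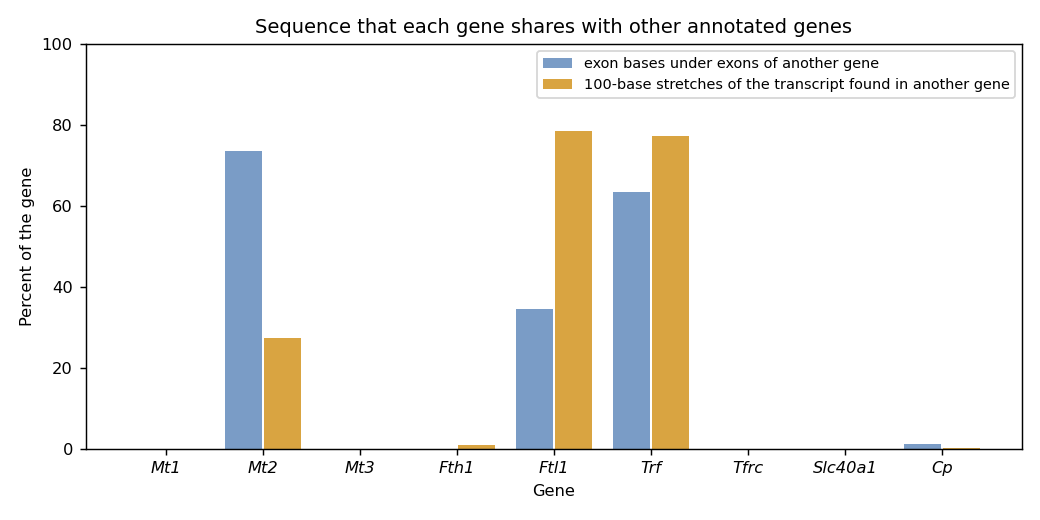
Percent of each gene's exon bases that lie under exons of another annotated gene (blue) and percent of the 100-base stretches of its first-listed transcript that occur in another gene's transcript (ochre). Mt2, Trf and Ftl1 stand out, with 73.5%, 63.5% and 34.6% of exon bases shared.

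The libraries held 31712084 to 40798644 counted reads, with a median of 36674269, and the 18 pairs of mice on the same diet all differed by more than counting noise. Counts per library ran from 7418 to 14691 for Mt1 and from 5839 to 9565 for Fth1, but only from 99 to 223 for Slc40a1, from 92 to 236 for Mt2 and from 72 to 150 for Trf. Markers of cerebellar cortex were high, with summed levels of 5650 to 7181 CPM (scaled by TMM, which evens out differences in library composition) for 7 Purkinje cell genes and 6193 to 6643 CPM for 7 granule cell genes. Choroid plexus is known to make much Trf, and its markers were at 19.8 to 28.1 CPM summed over 8 genes. Most of this sum was Otx2 (diet means of 11.53 to 13.58 CPM) and Clic6 (7.46 to 8.56 CPM). Ttr was less even, with means of 0.756 CPM on AL, 0.762 CPM on DR and 3.41 CPM on KD. Its KD values ran from 0.371 to 7.949 CPM, and its part in the values of the members was not tested. The second DR mouse stood apart, with the highest erythroid sum of all 12 mice (490.3 CPM, against 174.2 CPM in the lowest mouse on that diet). It also had the highest Mt2, Fth1 and Tfrc levels of all 12 mice.

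The first question was whether DR changed these transcripts relative to AL feeding. In the quasi-likelihood fit of edgeR, with p adjusted (Benjamini-Hochberg) across every gene tested, 1 of the 9 members passed an adjusted p of 0.05, namely Mt1, which rose. Across all 19052 genes tested, 583 passed (3.06%). Fold changes pointed up in 8 of 9 members, with a median log2 fold change of 0.20 against 0.004 over all genes. AL and DR mice did not overlap for 2 members, Fth1 and Tfrc, against 10.9% of all genes.

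Mt1 was the metallothionein that passed the test for DR vs AL, while Mt2 and Mt3 also pointed up. AL mice had 309.7, 261.3, 260.3 and 235.1 CPM, and DR mice had 375.2, 300.4, 326.0 and 342.9 CPM. The groups overlapped, since the highest AL mouse (309.7 CPM) exceeded the lowest DR mouse (300.4 CPM). The mean rose from 266.6 ± 31.2 to 336.1 ± 31.4 CPM (SD, n = 4), a log2 fold change of 0.33 (SE 0.08, adjusted p = 0.0321, edgeR). The call was lost when AL mouse 2 or 4, or DR mouse 1, 3 or 4 was left out, with log2 fold changes of 0.28 to 0.42 and adjusted p of up to 0.105 over the 8 such fits. Without the second DR mouse it was 0.38 (adjusted p = 0.0214, edgeR).

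Mt2 did not pass the test. AL mice had 4.46, 3.97, 4.51 and 2.92 CPM, and DR mice had 5.47, 7.36, 4.43 and 3.49 CPM. The DR values were the most spread of any diet, and 2 of them lay within the AL range. The log2 fold change was 0.38 (SE 0.20, adjusted p = 0.334, edgeR).

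Mt3 also did not pass. AL mice had 142.7, 135.4, 136.6 and 164.8 CPM, and DR mice had 177.6, 133.0, 172.1 and 180.2 CPM. In DR, 3 mice lay above every AL mouse and the second lay below all of them. For Mt3 the log2 fold change was 0.20 (SE 0.09, adjusted p = 0.243, edgeR), against 0.29 without the second DR mouse (adjusted p = 0.0313), where Mt3 passed.

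Among the iron storage genes, Fth1, the ferritin heavy chain with ferroxidase activity, had values of 192.9, 175.3, 174.1 and 185.0 CPM in AL mice. DR mice had 197.0, 263.6, 208.8 and 213.9 CPM. Every DR mouse was above every AL mouse. The log2 fold change of 0.28 (SE 0.07) had an adjusted p of 0.0542 by edgeR and of 0.0117 by DESeq2. Of the 6 other settings tried, 3 called it, so the call depends on the test and its settings. The authors, who also used edgeR, listed Fth1 among oligodendrocyte genes altered by DR. Without the second DR mouse the log2 fold change was 0.18 (adjusted p = 0.0856, edgeR). Ftl1, the light chain that favours mineral growth inside the shell, ranged from 57.7 to 87.1 CPM in AL and from 65.6 to 96.7 CPM in DR, with a log2 fold change of 0.11 (adjusted p = 0.724, edgeR). Summing Ftl1 with 5 genes of shared sequence left it at 0.12 (adjusted p = 0.658).

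For iron uptake, Tfrc moved little between mice of a diet. AL mice had 86.6, 86.0, 87.0 and 89.0 CPM, and DR mice had 91.8, 105.2, 90.7 and 93.8 CPM. The lowest DR mouse was above the highest AL mouse. Tfrc had a log2 fold change of 0.13 (SE 0.05), with an unadjusted p of 0.0196 and an adjusted p of 0.181 by edgeR, or of 0.08 without the second DR mouse (adjusted p = 0.385). Trf, whose transcript in brain comes largely from oligodendrocytes, went from 2.73 ± 0.52 to 3.18 ± 0.35 CPM (SD, n = 4), with a log2 fold change of 0.21 (adjusted p = 0.503, edgeR) and overlapping groups.

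Slc40a1 was the single member whose fold change on DR pointed down. AL mice had 4.78, 3.79, 4.65 and 5.29 CPM, and DR mice had 4.09, 3.09, 3.51 and 3.63 CPM. Only the first DR mouse reached into the AL range. Its log2 fold change was -0.36 (SE 0.13, adjusted p = 0.152, edgeR). The endothelial marker sum was 217.3 to 245.9 CPM in AL and 211.9 to 219.6 CPM in DR, with overlapping ranges. Of its 8 genes, 6 pointed down and 2 up on DR relative to AL. Itm2a alone passed, where 3.06% of all genes did, with a log2 fold change of -0.67 (adjusted p = 0.000487, edgeR). Pecam1 pointed up at 0.28 (adjusted p = 0.164, edgeR), and Cldn5 and Cdh5 stayed at -0.01 and 0.01. The Purkinje cell sum did not overlap, at 6708 to 7181 CPM in AL and 5650 to 6508 CPM in DR. The part of either sum in the Slc40a1 value was not tested. Cp, the plasma and astrocyte ferroxidase, had 13.3 to 16.8 CPM in AL and 14.6 to 18.8 CPM in DR, with a log2 fold change of 0.11 (adjusted p = 0.596, edgeR).

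**Figure D2:**
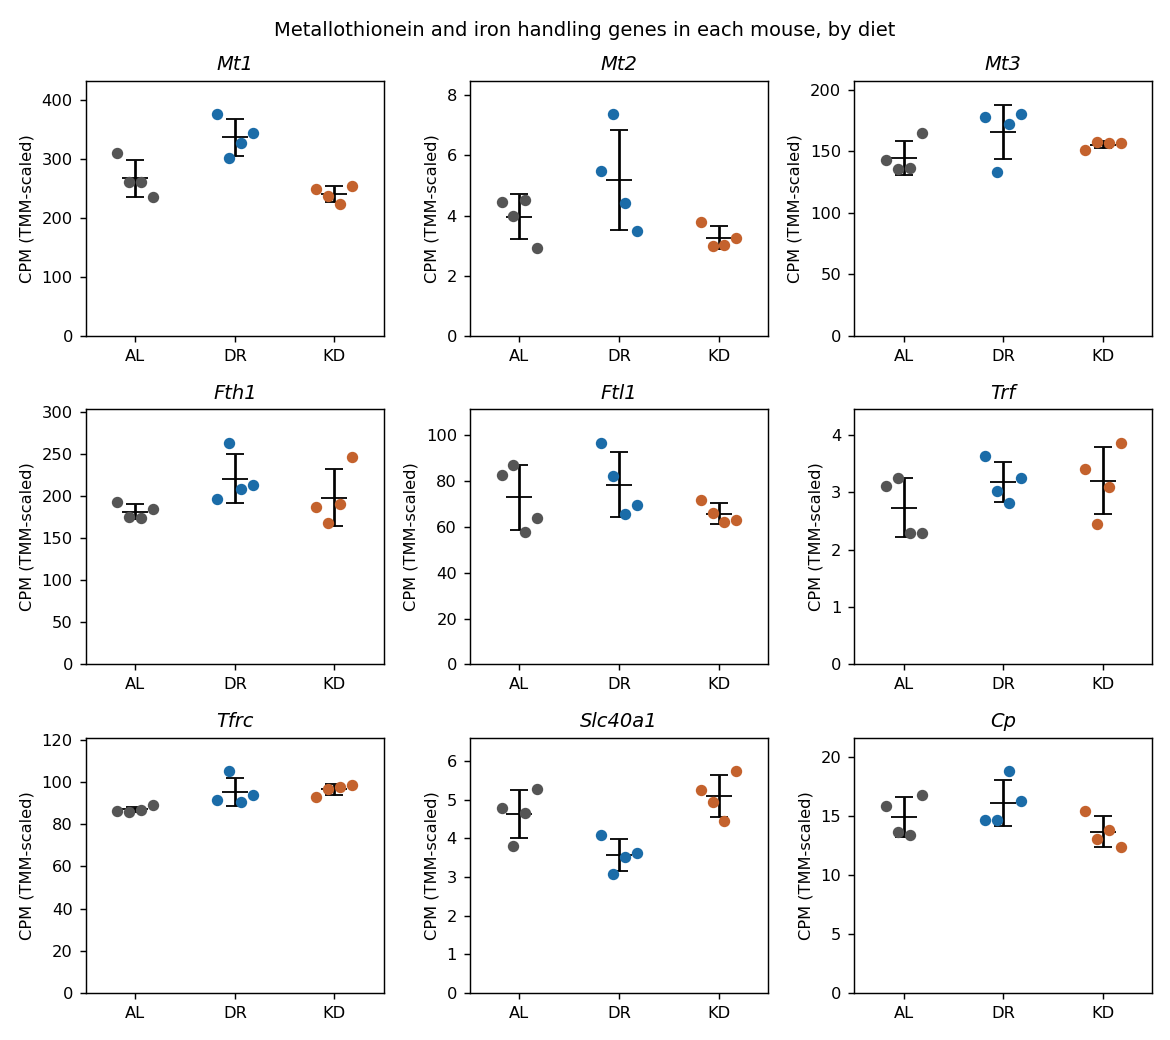
Level of each of the 9 genes in CPM (TMM-scaled; linear axes from 0) in every mouse of the AL, DR and KD groups; points are mice, bars are the mean and SD of 4 mice. All KD mice lie below all DR mice for Mt1 and above them for Slc40a1.

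The next comparison asked how KD mice stood against AL mice, which are the same AL mice as above. No member passed the test. No gene passed in this edgeR fit (0% of 19036 tested), while 928 (4.87%) had an unadjusted p under 0.05. DESeq2 called 10, and edgeR without the low-count filter called 118. Of the members, 5 pointed up and 4 down, with a median log2 fold change of 0.11 against 0.000 over all genes.

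Tfrc was the member whose KD and AL values did not overlap, against 2.96% of all genes. KD mice had 93.1, 96.8, 97.8 and 98.4 CPM, each above the highest AL mouse at 89.0 CPM. The log2 fold change of 0.15 (SE 0.04) had an unadjusted p of 0.000908 and an adjusted p of 0.694 by edgeR. The erythroid marker sum separated the same mice in the other direction, with 235.6 to 268.0 CPM on KD and 273.0 to 419.7 CPM on AL. Its 4 tested globin genes had log2 fold changes of -0.48 to -0.45, with adjusted p of 0.294 to 0.624. This sum and Tfrc had a Pearson r of 0.05 over the 12 libraries, or 0.81 after centring on diet means. The second DR mouse, which is not in this comparison, was highest of all 12 in both (490.3 CPM and 105.2 CPM). The r without that mouse was not computed, and the part of the erythroid sum in the Tfrc value was not tested. Mt1, at 249.4, 236.4, 224.0 and 253.1 CPM on KD, overlapped the AL mice with a log2 fold change of -0.15 (SE 0.07, unadjusted p = 0.0465, adjusted p = 0.994). The other 7 had log2 fold changes between -0.28 (Mt2) and 0.23 (Trf), each with an adjusted p of 0.994. Intervals were wide for the least abundant: for Mt2 the 95% interval ran from -0.59 to 0.03, and for Slc40a1 from -0.11 to 0.40.

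KD mice were last set against the DR mice. Here 3 of the 9 members passed, with Mt1 and Mt2 lower and Slc40a1 higher on KD than on DR. Of all 19087 genes tested, 942 passed (4.94%). The members had a median log2 fold change of -0.16 against -0.002 over all genes, with 3 pointing up and 6 down. Groups did not overlap for Mt1 and Slc40a1, against 11.8% of all genes.

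Mt1 gave the firmest difference of the set. The KD values, from 224.0 to 253.1 CPM, all lay below the DR values, from 300.4 to 375.2 CPM. The log2 fold change was -0.48 (SE 0.06, adjusted p = 0.000358, edgeR), and it passed in all 8 fits that left out a mouse and under all 6 other settings tried, between -0.53 and -0.42.

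Mt2 was lower on KD by a larger and less certain margin. KD mice had 3.79, 2.997, 3.01 and 3.27 CPM against 5.47, 7.36, 4.43 and 3.49 CPM on DR. The highest KD mouse exceeded the lowest DR mouse. This was a log2 fold change of -0.66 (SE 0.18, adjusted p = 0.0467, edgeR), and of the 8 fits that left out a mouse only the one without the fourth DR mouse passed. Without the second it was -0.45 (adjusted p = 0.122, edgeR). Mt3 stayed at 151.3 to 157.3 CPM in KD, the tightest group of the 3 diets, with a log2 fold change of -0.09 (SE 0.07, adjusted p = 0.543), which became -0.18 and passed without the second DR mouse (adjusted p = 0.0235).

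Slc40a1 was higher on KD. The values were 5.25, 4.94, 4.46 and 5.74 CPM on KD and 4.09, 3.09, 3.51 and 3.63 CPM on DR. No DR mouse reached the lowest KD mouse. The difference was 0.51 on the log2 scale (SE 0.12, adjusted p = 0.0217, edgeR), and the call was lost without DR mouse 2 or 3 or without KD mouse 1 or 4, at log2 fold changes of 0.44 to 0.50 (adjusted p = 0.0532 to 0.0755). The endothelial marker sum also separated these diets, with 232.7 to 240.2 CPM on KD against at most 219.6 CPM on DR. Of its 8 genes, 1 (Itm2a) passed the test, where 4.94% of all genes did. The Purkinje cell sum separated them too, with 6621 to 6800 CPM on KD and 5650 to 6508 CPM on DR. Over the 12 libraries, which share the tissue piece and the scaling, the endothelial sum and Slc40a1 had a Pearson r of 0.86. After centring on diet means it was 0.58. For the Purkinje cell sum these values were 0.71 and 0.20. Whether either sum contributed to the Slc40a1 difference was not tested.

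The other iron genes did not pass between KD and DR. Fth1 had 187.6, 167.9, 191.3 and 246.2 CPM on KD, 1 of them within the DR range and 3 below it, with a log2 fold change of -0.16 (adjusted p = 0.435, edgeR). Log2 fold changes were -0.26 for Ftl1 (adjusted p = 0.132) and -0.23 for Cp (adjusted p = 0.161). Trf and Tfrc stayed at 0.01 and 0.02 (adjusted p = 0.981 and 0.897), and both turned slightly negative when libraries were scaled by their size alone.

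**Figure D3:**
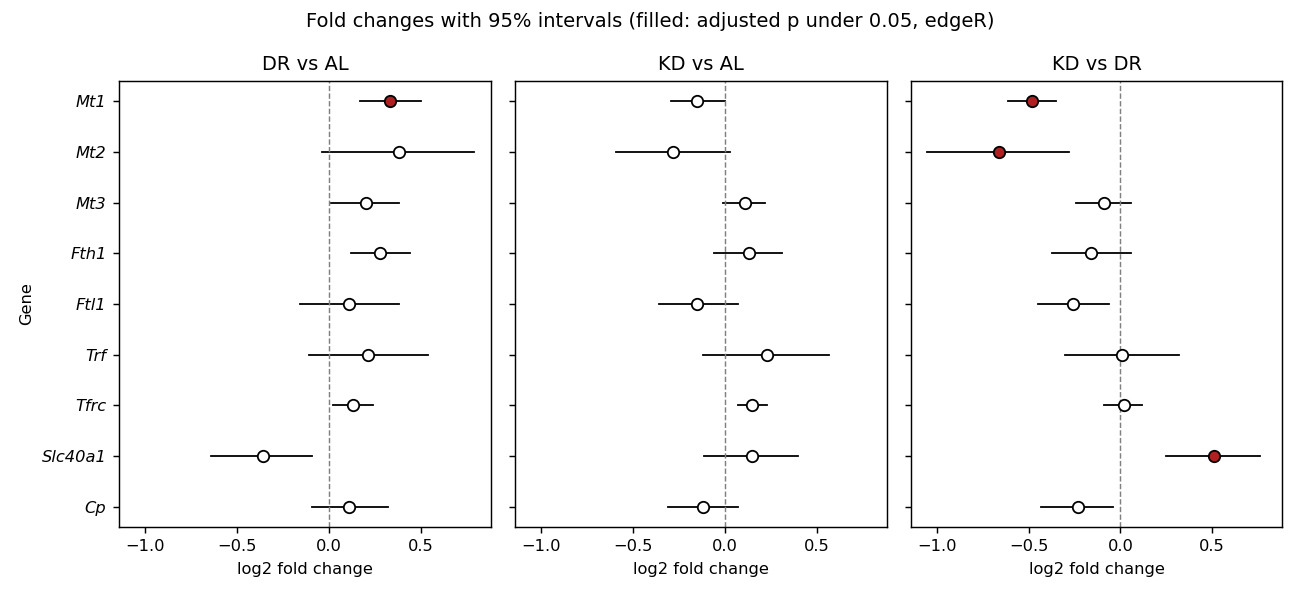
Log2 fold change of each gene between diets with its 95% interval (edgeR; 4 mice per diet); filled points passed an adjusted p of 0.05. Mt1 passed for DR vs AL, no gene for KD vs AL, and Mt1, Mt2 and Slc40a1 for KD vs DR.

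**Figure D4:**
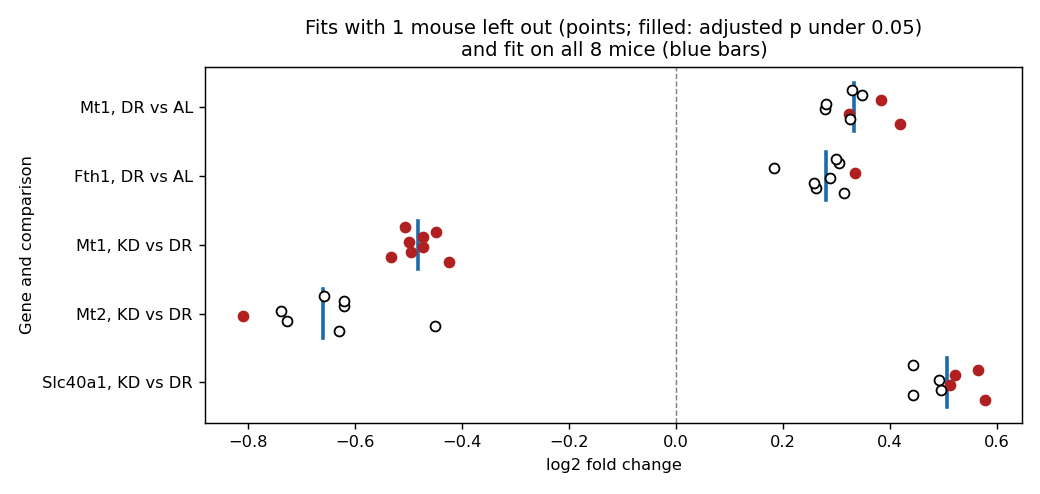
Log2 fold change for 5 gene and comparison pairs in each of the 8 fits that left out 1 mouse (points; filled where the adjusted p was under 0.05) and in the fit on all 8 mice (blue bars). Mt1 for KD vs DR is the pair with all 8 points filled.

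Ratios within a library do not depend on its scaling. In CPM, Mt1 exceeded Mt3 by a factor of 1.86 ± 0.31 on AL, 2.04 ± 0.18 on DR and 1.55 ± 0.10 on KD (SD, n = 4), and every DR mouse (at least 1.89) was above every KD mouse (at most 1.65). The ratio of Tfrc to Slc40a1, uptake over export, was 19.1 ± 2.52 on AL, 27.1 ± 4.93 on DR and 19.1 ± 2.16 on KD. Its lowest DR value, 22.5, lay just under the highest AL value, 22.7, and above the highest KD value, 21.9. Fth1 to Ftl1 was 2.57, 2.88 and 3.03 on AL, DR and KD, with SDs of 0.474 to 0.631 and overlapping groups.

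The remaining metal genes were read from lists of names. Of all genes tested, 3.06% passed for DR vs AL, 0% for KD vs AL and 4.94% for KD vs DR. For iron export and storage, 3 of 7 listed genes were tested and 1 passed, Heph, which encodes hephaestin, the membrane ferroxidase that works with ferroportin. It had 4.31, 3.51, 3.16 and 3.04 CPM in AL mice, 5.85, 4.28, 6.62 and 6.60 CPM in DR mice and 2.99, 2.91, 3.48 and 3.50 CPM in KD mice. The DR mice were above all KD mice, and the second of them fell just under the highest AL mouse. Heph rose on DR by a log2 fold change of 0.73 (SE 0.15, adjusted p = 0.0191, edgeR) and was lower on KD than on DR by -0.86 (SE 0.14, adjusted p = 0.00191). The call for DR vs AL was lost without AL mouse 2 or 4 or DR mouse 3 or 4, and the call for KD vs DR was kept in all 8 such fits. Ncoa4, the receptor that delivers ferritin to lysosomes, had a log2 fold change of -0.05 on DR relative to AL (adjusted p = 0.551).

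For iron uptake and trafficking, 13 of 16 listed genes were tested between DR and AL and 1 passed, where 3.06% of all genes did. Steap2, a metalloreductase, fell by 0.16 on the log2 scale (adjusted p = 0.0431, edgeR), a call lost in all 8 fits that left out a mouse. None of 12 tested passed in either KD comparison. No gene of iron sensing (9 tested of 10 listed) passed in any comparison. Its iron regulatory proteins had log2 fold changes on DR of -0.12 for Aco1 (adjusted p = 0.277) and -0.02 for Ireb2 (adjusted p = 0.862). All 18 genes of haem synthesis, transport and breakdown were tested and none passed, with Hmox1, the inducible haem oxygenase, at -0.08 on DR (adjusted p = 0.86).

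Among 16 genes of iron-sulphur cluster assembly, 1 passed, where 3.06% of all genes passed for DR vs AL and 4.94% for KD vs DR. Ciapin1, of the cytosolic assembly route, fell by 0.20 on the log2 scale on DR relative to AL (adjusted p = 0.0485) and was higher on KD than on DR by 0.20 (adjusted p = 0.0182, edgeR). Leaving out a mouse kept 2 of 8 and 4 of 8 of these calls. None of the 11 zinc importers tested, the 9 or 10 genes of zinc export and sensing or the 11 copper genes passed in any comparison. Mtf1, the zinc sensor, had log2 fold changes of -0.08 for DR vs AL (adjusted p = 0.522), 0.04 for KD vs AL (adjusted p = 0.994) and 0.11 for KD vs DR (adjusted p = 0.286). Slc30a1, the zinc exporter that MTF1 controls, had 0.00, -0.01 and -0.01.

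Glucocorticoid-responsive genes, listed because steroid hormones induce Mt1 and Mt2, moved between the same diets. The list was chosen with earlier results of these data known, so the shares below are not an independent comparison with all genes. Of 13 tested, 5 passed as higher and 1, Nr3c1, as lower on DR relative to AL, where 3.06% of all genes passed. By direction, 10 pointed up and 3 down, with log2 fold changes of -0.27 for Nr3c1, -0.26 for Per1 and -0.06 for Tsc22d3. None passed for KD vs AL. Between KD and DR, 1 passed as higher and 10 as lower on KD, where 4.94% of all genes passed. Their median log2 fold changes were 0.33, -0.29 and -0.56, against 0.004, 0.000 and -0.002 over all genes. Their part in the metallothionein differences was not tested.

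**Figure D5:**
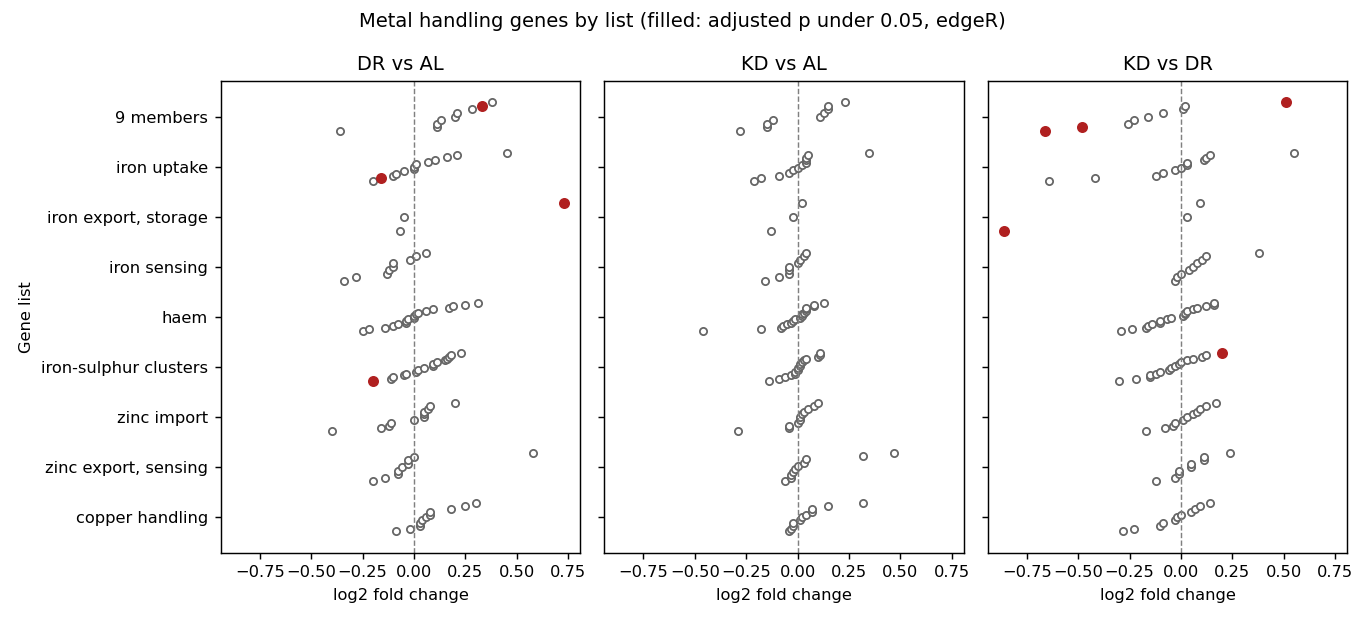
Log2 fold change of each tested gene (points) by list of metal handling genes in the 3 diet comparisons; filled points passed an adjusted p of 0.05 (edgeR). Outside the 9 members, Heph, Steap2 and Ciapin1 passed for DR vs AL, and Heph and Ciapin1 for KD vs DR.

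The cell types known to make these transcripts were checked by marker sums. The astrocyte and Bergmann glia sum over 10 genes was 4318 to 4703 CPM on AL, 4094 to 4373 CPM on DR and 4322 to 4507 CPM on KD. On DR relative to AL, 9 of its genes pointed down and 3 of them (Aqp4, Hopx and Gja1) passed, where 3.06% of all genes did. The 1 that pointed up was Aldoc, the largest part of the sum, with means of 1647 CPM on AL and 1722 CPM on DR. Over the 12 libraries the Pearson r of this sum with Mt1 was -0.09, and 0.83 after centring on diet means. Mt1 had an r of -0.79 with the endothelial sum, -0.61 with the Purkinje cell sum and -0.57 with the oligodendrocyte and microglial sums. After centring these were -0.28, 0.29, -0.30 and -0.03. With the erythroid sum it was -0.43, and -0.75 after centring. The remaining sums had -0.34 to -0.01, and -0.39 to 0.53 after centring. The oligodendrocyte sum over 11 genes was 2397 to 3029 CPM on AL, 2241 to 2772 CPM on DR and 2630 to 2850 CPM on KD. The microglial sum over 9 genes was 71.92 to 75.93 CPM on AL, 66.51 to 71.89 CPM on DR, just below every AL mouse, and 70.22 to 81.29 CPM on KD. It had a Pearson r of 0.67 with Slc40a1 over the 12 libraries, or 0.32 after centring on diet means. Slc40a1 had an r of 0.71 with the Purkinje cell sum, 0.62 with the oligodendrocyte sum and 0.53 with the astrocyte sum. After centring these were 0.20, 0.41 and 0.30. It was 0.52 with the molecular layer interneuron sum and 0.27 with the choroid plexus sum. With the erythroid, granule cell and meningeal fibroblast sums it was -0.13, -0.09 and -0.07. The part of these sums in the values of the members was not tested. The astrocyte, oligodendrocyte and microglia lists had no gene at 0.

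Across mice, the members followed each other to differing degrees. Over the 12 libraries, Mt1 and Mt2 had a Pearson r of 0.63, which fell to 0.15 after centring on diet means, and Fth1 and Tfrc had 0.67 and 0.66. Mt2 and Mt3 had -0.35, and -0.84 after centring, the strongest centred value of all pairs of members. The second DR mouse had the highest Mt2 (7.36 CPM) and the lowest Mt3 (133.0 CPM) of all 12 mice. It also had the highest Fth1 and Tfrc, and r without this mouse was not computed. Ftl1 and the oligodendrocyte sum had -0.89 on both scales. Among the 15477 genes that averaged 1 CPM or more, the closest to Mt1 were Prodh (proline dehydrogenase, r = 0.95), Dpm2 (r = 0.94) and Ttyh1 (r = 0.93). Those closest to Slc40a1 were Ccdc78, Hcls1 and Pnmal1 (r = 0.93, 0.93 and 0.91). For Ftl1 they were Gm49450 (r = 0.98), Atp6v1h (r = 0.94) and Snrpn (r = 0.92). The first-ranked genes were Ift27 for Mt2, Abcc5 for Mt3, Slc33a1 for Trf, 2900089D17Rik for Tfrc and Kremen1 for Cp, with r between 0.86 and 0.93. These values describe 12 points that share diet and scaling, and were picked as the highest of all.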

How the data were processed

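RNA was prepared with a poly(A) kit that does not keep strand. The authors trimmed reads with Trimmomatic 0.39, aligned them with STAR 2.7.0f to GRCm38.p6 and counted them per gene with featureCounts (Subread 1.6.4), and whether strand was used is not given in the sources used here. The deposited values are raw counts, with 1 column (gene length) tied to no sample. Diets came from the labels. Mice were numbered in the order of their records, so numbers pair nothing.

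Low genes were dropped with filterByExpr (at least 10 counts, total at least 15). TMM factors were 0.991 to 1.02. Quasi-likelihood tests used edgeR 4.0.16 (R 4.3.3), each diet pair on its own 8 libraries, with Benjamini-Hochberg adjustment over all genes. Intervals are 95%. Alternatives were RLE scaling, library size alone, no low-count filter, a mean above 10 CPM, DESeq2 1.42.0, 1 fit over all 12 libraries and leaving out each mouse. Symbols were matched for 54723 genes. All members, every listed gene that passed, Mtf1, Slc30a1, Ireb2, Aco1, Hmox1, Mt4, Ncoa4 and each member's closest genes were named by rule, and some of these results are not reported here. The members and lists were chosen with earlier results of these data known. The test was run on simulated data first.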

Additional observations from a re-analysis of the deposited data

Results flagged for a closer look

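A single value stood apart from the rest of its group. In KD mice, Mt3 was at 151.3 CPM in mouse 1 against 156.8 to 157.3 CPM in the other 3, a gap of 0.91 of the group's range, above Dixon's critical value of 0.829 for 4 samples. In all, 27 groups of 4 mice (9 genes on 3 diets) were examined, and chance sets apart about 1 group in 20.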

How the results depend on the processing

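Counts of genes called moved with the settings. For DR vs AL, 583 genes became 1258 without a low-count filter, 1012 by DESeq2 and 235 to 712 when a mouse was left out, and the members called became 3, 2 and 0 to 2, and 2 with library size alone. For KD vs AL, 0 genes became 118, 10 and 0 to 6, with no member called in any of these fits. For KD vs DR, 942 genes became 1503 without the filter and 467 to 946 without a mouse, and 3 members became 5 and 1 to 3, or 1 with a mean above 10 CPM, where only 6 members were tested. Scaling by library size alone changed the split from 252 higher and 331 lower to 322 and 243 for DR vs AL, and from 463 and 479 to 376 and 617 for KD vs DR. That scaling turned the KD vs DR value of Trf to -0.009 and of Tfrc to -0.002. Leaving out a mouse gave -0.092 to 0.117 for Trf and -0.005 to 0.067 for Tfrc in KD vs DR, -0.007 to 0.204 for Ftl1 in DR vs AL, and -0.037 to 0.022 for Ciapin1 in KD vs AL. The cause was not tested. Of 495 recomputed fold changes of the 9 members and of Heph, Steap2 and Ciapin1, 433 kept direction and call, 41 lost the call, 10 gained it and 11 changed sign. Of the members, Mt1 for KD vs DR kept its call throughout. Mt1 for DR vs AL was called without 1 of AL mouse 1, AL mouse 3 or DR mouse 2 only, Slc40a1 for KD vs DR without 1 of DR mouse 1, DR mouse 4, KD mouse 2 or KD mouse 3 only, and Fth1 for DR vs AL gained a call without DR mouse 1. Counts of 72 to 236 per library limit Trf, Mt2 and Slc40a1. No paired analysis was possible because the labels carry no number shared between diets. The sum of Ftl1 with 5 related genes and the levels per base outside overlaps were chosen after seeing the data.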
